A study of Rattus norvegicus with 22 samples.

Results

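The untreated polycystic kidney was described here from the 6 rats whose treatment label is Control, of 22 rats with data here. The rats were male PKD/Mhm (Cy/+) animals, 8 months of age, heterozygous for a missense mutation of Anks6, the gene of the protein SamCystin, which arose spontaneously in a Sprague Dawley colony. The other 16 rats of the same strain and age had received human adipose-derived stromal cells or the medium conditioned by them, and they were not used. According to the methods, abdominal palpation was the basis for calling a rat Cy/+, so the 6 rats were taken as carriers. No wild-type kidney stood beside them. Whether the untreated rats received a sham injection is not given in the sources used here. The rats are called by the numbers of their labels, 1, 12, 18, 22, 23 and 24. From each rat the left kidney was snap-frozen before perfusion, and libraries of its total RNA were run on a BGISEQ-500 instrument.

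The kidney filters blood in the glomerulus, whose podocytes hold back protein. The filtrate then passes the proximal tubule, which recovers phosphate, glucose, amino acids and small proteins and secretes organic anions and cations, the thick ascending limb, which dilutes it, and the distal tubule and collecting duct, which set the final balance of salt, water and acid. Between the tubules lies a stroma of capillaries, fibroblasts, pericytes and immune cells. In polycystic kidney disease tubules widen into cysts lined by a dedifferentiated epithelium, while the stroma between them gains matrix and inflammatory cells. Anks6 belongs to a group of proteins at the base of the primary cilium, with inversin (Invs) and the kinase Nek8.

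The libraries held 14552227 counts in rat 1, 12454944 in rat 12, 13062367 in rat 18, 12801967 in rat 22, 12706784 in rat 23 and 14306743 in rat 24. Of 17334 genes listed, 11680 had at least 1 TPM in each rat, where TPM is the level of a gene after correction for the length of its transcripts and for the total of the rat, and 2464 were at 0 in each rat. A count of 0 allows up to 0.241 CPM (the count scaled to the library total) in the library with the fewest counts, since 3 counts can be missed by chance, which covers counting error only. Levels were steeply graded, with 8813 genes at a median of at least 10 TPM, 1623 at 100 or more and 148 at 1000 or more. The rank correlation of counts between rats was 0.988 to 0.994, and the closest libraries, of rats 22 and 23, still differed by a chi-square of 7.31 per gene, so that each rat was counted as 1 sample. The tissue label was checked against markers of other tissues. Cyp11b1 of the adrenal cortex and Alb of the liver had medians of 0 TPM, the skeletal muscle gene Ckm stayed at or under 0.906 TPM. Of 10 genes of other tissues the most abundant were the fat hormone Adipoq, from 17.3 to 31.4 TPM, and another skeletal muscle gene, the myosin light chain Myl11, from 20.7 to 34.2 TPM. The male label was met by the Y-linked genes Eif2s3y, from 87.7 to 105 TPM, and Ddx3y, from 19.8 to 29.7 TPM, in all 6 rats.

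Across the 6 rats most genes differed little. The spread was measured as the biological coefficient of variation (BCV), the relative spread between rats after counting error is taken out, which had a median of 0.0953 over the 12114 genes with enough counts. A BCV of at least 0.5 was reached by 158 of these genes, or 1.3%, and such genes are called variable below. At that share most lists of marker genes would hold none, so a list without variable genes is not set apart by this alone. Without rat 1 there were 136, of which 104 were among the 158. As a background for counts of genes by rat, each rat had the highest value of 14.2% (rat 23) to 19.5% (rat 12) of the genes of the fit, and the lowest of 14.8% (rat 22) to 20.9% (rat 12). The spread between rats at matched level is shown in the plot of BCV against mean CPM. Among the variable genes were solute carriers and enzymes, red cell globins and class I MHC genes. Neither body weight, cyst area nor renal function of single rats was analysed here, and the causes of the spread were not tested.

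**Figure D1:**
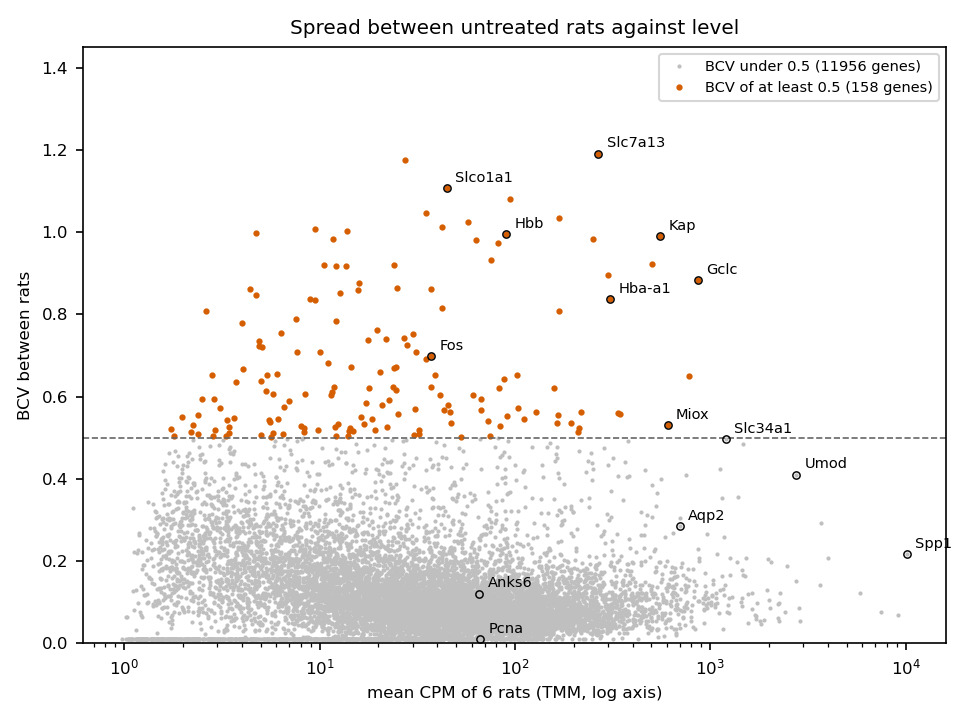
The biological coefficient of variation between the 6 untreated rats (vertical axis) is plotted against the mean CPM (horizontal axis, logarithmic) for the 12114 genes of the fit, with the 158 genes at or above 0.5 (dashed line) in orange. Slc7a13, Slco1a1, Kap and Gclc lie far above the bulk of genes at their level, while Anks6 and the proliferation gene Pcna lie within or under it.

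The most abundant transcripts of the polycystic kidney came from ion transport, iron storage, protein synthesis and the osteopontin gene. The 25 genes with the highest median TPM made up 12.3% ± 0.986 (SD, n = 6) of the summed TPM, and 11 of them encode ribosomal proteins. Fxyd2, a regulatory subunit of the sodium pump, was first at a median of 10415 TPM. Spp1, osteopontin, a secreted phosphoprotein made by injured and cystic tubules, was second at a median of 9700.1 TPM, with 14177 TPM in rat 1, 8682 in rat 12, 10508 in rat 18, 8892 in rat 22, 8460.0 in rat 23 and 10966 in rat 24. Rat 1 had the highest Spp1, and the BCV of 0.218 kept the gene outside the variable ones. Without a wild-type kidney, the level of Spp1 could not be assigned to injury or cysts. The elongation factor Eef1a1 had a median of 7672 TPM, the ferritin chains Fth1 and Ftl1 of 7562 and 4385 TPM, and the actin-binding thymosins Tmsb4x and Tmsb10 of 6595 and 3809 TPM. Gpx3, the secreted glutathione peroxidase that the proximal tubule supplies to plasma, stood at 3904 TPM and was lowest in rats 12 and 1. Cd74, the invariant chain of class II MHC, stood at 3568 TPM. The pump subunit Atp1b1, at 3736 TPM, and the metallothionein Mt2A, at 3267 TPM, were close to it. No gene of the mitochondrial genome is listed, so that its transcripts, which are abundant in kidney, could not be ranked.

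**Figure D2:**
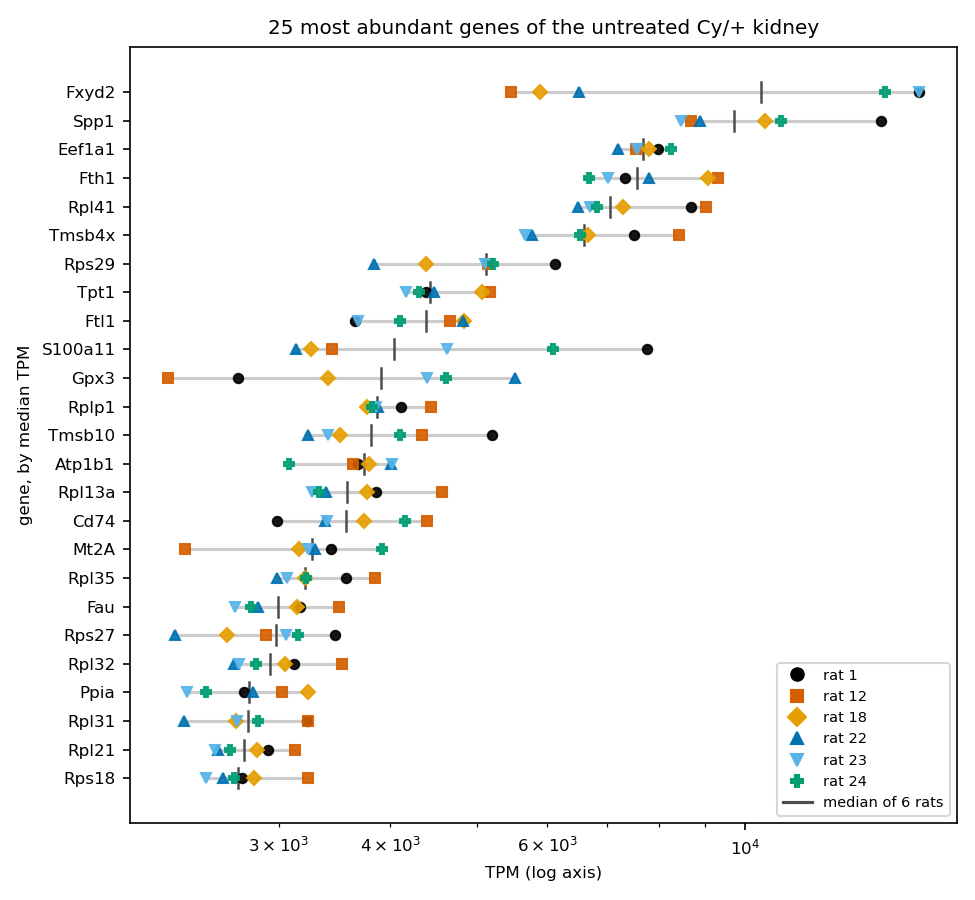
TPM of the 25 most abundant genes (horizontal axis, logarithmic) in each of the 6 untreated rats, ordered from the highest median down, with a grey line over the range and a bar at the median. Most genes vary little between rats, while Fxyd2, S100a11 and Gpx3 spread the most on this scale.

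The rank of Fxyd2 rested on the scale. Its TPM was 15662 TPM in rat 1, 5463 in rat 12, 5888 in rat 18, 6504 in rat 22, 15634 in rat 23 and 14325 in rat 24, so that rats 1, 23 and 24 lay well above the other 3. Its CPM, which is not divided by transcript length, was 610.5 ± 37.6 CPM (SD, n = 6) and ran only from 561 to 667 CPM. The count behind each TPM unit therefore differed between rats for this gene, as it did by more than 1.5 times for 9 of 10664 genes (0.084%) with at least 50 counts in each rat. Spread between rats is therefore measured by CPM and BCV below, while TPM serves to rank genes, to sum lists and to give the range of single genes for comparison with others. By share of counts, where long transcripts weigh more, the 25 highest genes held 8.49% and shared 9 genes with the 25 highest by TPM.

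The proximal tubule was well represented, but by median BCV its 3 lists were the nephron lists in which the rats differed most. All 12 genes of its early part (the convoluted S1 and S2 segments) had at least 1 TPM in each rat, and their summed TPM was 727 TPM in rat 1, 967 in rat 12, 1485 in rat 18, 2281 in rat 22, 1715 in rat 23 and 1599 in rat 24. By this sum, of which Slc34a1 made up 45.2%, rat 1 was lowest and rat 22 highest, a range of 3.14 times. Of the 12 genes 6 were lowest in rat 1 and 6 in rat 12, and 8 were highest in rat 22. By the median of log2(TPM + 1) over the 12, rat 12 was instead lowest and rat 24 highest, with a range of 1.08 on the log2 scale. In a whole kidney, fewer cells of a type and less RNA per cell cannot be told apart. Slc34a1, the sodium phosphate cotransporter of the brush border, had the highest level of the list at a median of 691 TPM. On the CPM scale it was 402 CPM in rat 1, 942 in rat 12, 1351 in rat 18, 2035 in rat 22, 1395 in rat 23 and 1109.7 in rat 24, and its BCV of 0.497 lay just under the limit of 0.5. Its relative Slc34a3 was the 1 variable gene of the 12, from 13.9 to 74.8 CPM with a BCV of 0.624, and here rats 22, 23 and 24 lay above the other 3. The dicarboxylate transporter Slc13a3, at a median of 159 TPM, and the organic anion transporter Slc22a6, at 158 TPM, were the next most abundant. Slc5a2, the glucose transporter of the early tubule, was at 142 CPM in rat 1, 57.6 in rat 12, 91.4 in rat 18, 237 in rat 22, 186 in rat 23 and 159 in rat 24, lowest in rats 12 and 18. Lrp2, the uptake receptor megalin, ran from 545 to 1087 CPM, lowest in rats 1 and 12. The median BCV of the list was 0.452, against 0.0953 over all genes.

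The late proximal tubule (the straight S3 segment) ordered the rats in another way. Its 8 genes summed to 303 TPM in rat 1, 1755 in rat 12, 2041 in rat 18, 799.9 in rat 22, 942 in rat 23 and 731 in rat 24. Rats 12 and 18 were the highest, and rat 1 was again the lowest and had the lowest value of all 8 genes. Of the 7 genes with enough counts 5 were variable, and the list's median BCV was 0.536. Slc7a13, an amino acid transporter of the S3 brush border, had the highest BCV of any gene of the fit, 1.19, at 13.1 CPM in rat 1, 659 in rat 12, 639 in rat 18, 59.9 in rat 22, 142 in rat 23 and 91.6 in rat 24. Between rats 1 and 12 it differed by 50.4 times, and rats 12 and 18 lay well apart from the other 4. Its partner Slc3a1, the heavy chain without which the transporter does not reach the membrane, was at 232 CPM in rat 1, 1269.6 in rat 12, 1565 in rat 18, 519 in rat 22, 609 in rat 23 and 497 in rat 24, again with rats 12 and 18 on top and rat 1 at the bottom. The amino acid transporters Slc6a18 and Slc7a12 and the aminoacylase Acy3 were the other variable members, with BCVs of 0.536, 0.851 and 0.536. Slc22a7, an organic anion transporter, was too low for the fit, from 0.3604 to 3.28 TPM.

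Enzymes of the proximal tubule had a median BCV of 0.421. Their 14 genes summed from 5019 to 10724 TPM, lowest in rat 1 and highest in rat 22, and Gpx3 made up 45.5% of the sum. Of the 14, 11 had their lowest value in rat 1, while 9 had their highest in rat 18 and 5 in rat 22. Miox, which opens the ring of myo-inositol and is nearly specific to kidney, was at 168 CPM in rat 1, 707 in rat 12, 997 in rat 18, 679 in rat 22, 562 in rat 23 and 513 in rat 24. Rat 1 stood apart at the low end, and rat 18 was highest. Miox was variable with a BCV of 0.5299, as were the glycine cleavage enzyme Gldc, 0.503, and Cyp24a1, which breaks down vitamin D, 0.519.

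**Figure D3:**
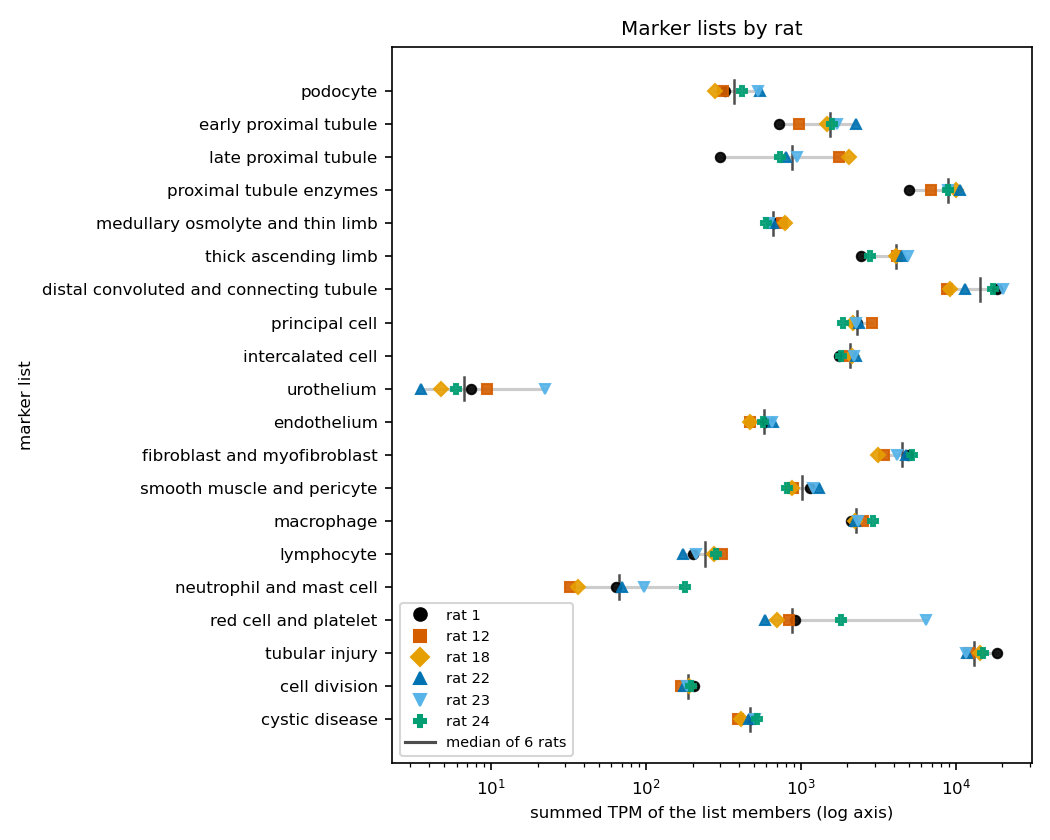
Summed TPM (horizontal axis, logarithmic) of 20 lists of marker genes in each of the 6 untreated rats, with a grey line over the range and a bar at the median. The late proximal tubule and red cell lists spread most among the abundant lists, and the cell division, intercalated cell, cystic disease and medullary lists spread least.

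From the loop of Henle onwards the lists had lower median BCVs than those of the proximal tubule. None of their listed genes with enough counts for the fit reached a BCV of 0.5, against 1.3% of all genes in the fit. The 11 genes of the thick ascending limb summed to 2435 TPM in rat 1, 4151 in rat 12, 4134 in rat 18, 4473 in rat 22, 4929.6 in rat 23 and 2786 in rat 24. By this sum, of which Umod made up 44.1%, rats 1 and 24 lay under the other 4. By the median of log2(TPM + 1) rat 24 was lowest at 5.97, while rat 1, at 6.55, lay above rats 22 and 23. Umod, uromodulin, the main protein of normal urine, was the most abundant at a median of 2009 TPM, and on the CPM scale it was 1345 CPM in rat 1, 3558 in rat 12, 3536 in rat 18, 3067 in rat 22, 3479 in rat 23 and 1592 in rat 24. The same 2 rats were low for Slc12a1, the sodium potassium chloride cotransporter that drives the segment, from 396 to 1056 CPM. The BCV was 0.4102 for Umod and 0.4102 for Slc12a1. Egf, the growth factor shed into urine by these cells, had a median of 333 TPM and was highest in rats 22 and 23.

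In the distal convoluted and connecting tubule the summed TPM was carried to 71.2% by Fxyd2, whose TPM is uncertain as described. Klk1, tissue kallikrein, had a median of 1710.0 TPM and ranged from 415 to 949 CPM. Slc12a3, the thiazide-sensitive cotransporter, was at 2189 CPM in rat 1, 2225 in rat 12, 2025 in rat 18, 3177 in rat 22, 2949 in rat 23 and 2179.6 in rat 24, with rats 22 and 23 above the other 4 and a BCV of 0.189. The calcium-binding protein Calb1 ran from 366 to 698 TPM. Pvalb, a marker of the early distal convoluted tubule in rodents, was at 0 in 5 rats and at 1.28 TPM in rat 1. Pvalb and S100g had too few counts for the fit, and Trpm6 and Emx1 were not analysed here.

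By median BCV the collecting duct was among the steadiest parts of the nephron. The 10 genes of principal cells summed from 1861 to 2893 TPM, with rat 12 highest and rat 24 lowest in 8 of the 10 genes each, and had a median BCV of 0.146. Hsd11b2, which protects the mineralocorticoid receptor from cortisol-like steroids, led the list at a median of 1004 TPM. Aqp2, the vasopressin-regulated water channel, was at 698 CPM in rat 1, 1122 in rat 12, 650.2 in rat 18, 661 in rat 22, 574 in rat 23 and 493 in rat 24, and only rat 12 lay clear of the others. Scnn1b, a subunit of the epithelial sodium channel, ran from 203 to 278 CPM. The 13 genes of intercalated cells were all detected in each rat and summed from 1771 to 2276 TPM, with a median BCV of 0.139. Slc26a4, pendrin, the chloride bicarbonate exchanger of type B cells, had a BCV of 0.0822 and a median of 243 TPM. Slc4a1, the anion exchanger of type A cells, was lower and less even, from 48.7 to 118 TPM with a BCV of 0.314. Red cells express Slc4a1 too, and rat 23, with the highest globin level, had 373 CPM of Slc4a1, beside 374 CPM in rat 22, with the lowest globin level. The share of this gene that came from blood was not tested.

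Of the glomerulus, 11 of 12 podocyte genes had at least 1 TPM in each rat. Nphs1, nephrin, a protein of the slit between podocyte foot processes, was at 97.2 CPM in rat 1, 115 in rat 12, 97.1 in rat 18, 178 in rat 22, 164 in rat 23 and 123 in rat 24. Rats 22 and 23 were the highest, and rats 1, 12 and 18 were the lowest. Wt1, the podocyte transcription factor, ran from 5.17 to 15.7 TPM. The highest value of 8 of the 12 genes was in rat 22 and of 3 in rat 23. No podocyte gene was variable, against 1.3% of all genes in the fit, and the median BCV was 0.257. Genes of the medulla and its adaptation to high salt, with a median BCV of 0.136, were led by the water channel Aqp1, which the proximal tubule also makes, from 257 to 447 TPM. The chaperone Cryab, from 141 to 206 TPM, and the aldose reductase Akr1b1, from 73.7 to 99.4 TPM, varied by BCVs of 0.132 and 0.125, while the inner medullary urea transporter Slc14a2 reached at most 0.191 TPM.

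**Figure D4:**
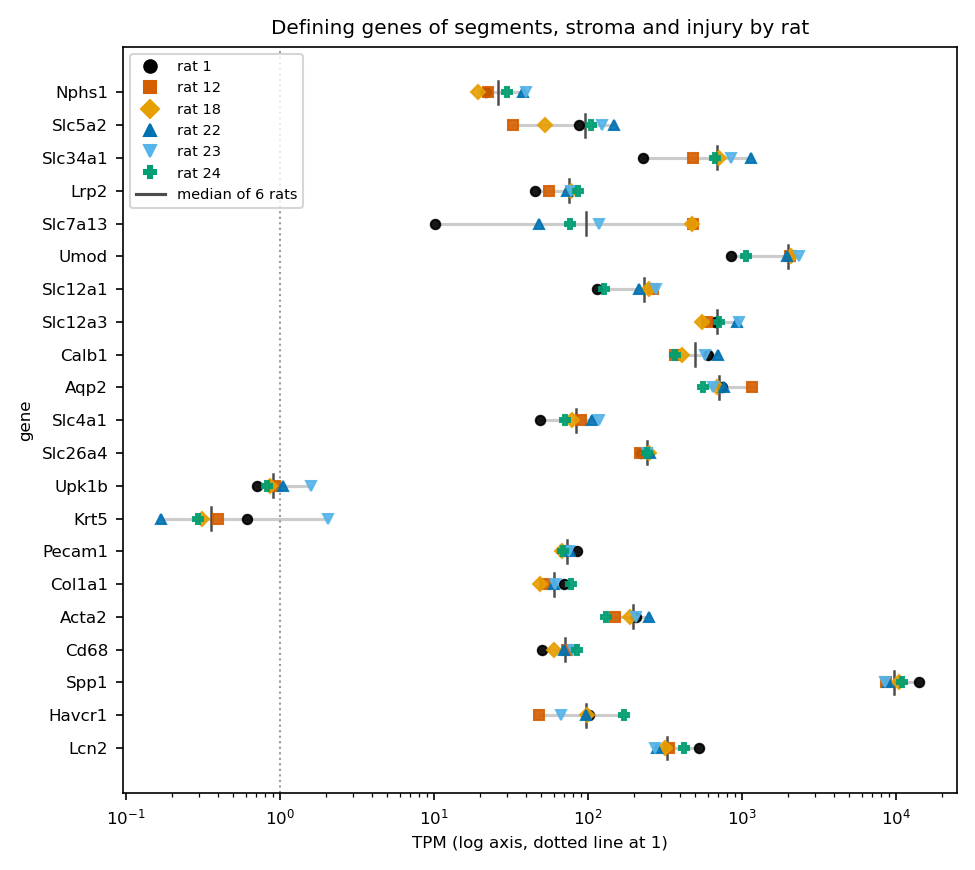
TPM (horizontal axis, logarithmic, with a dotted line at 1) of defining genes of nephron segments, urothelium, stroma, macrophages and injured tubules in each of the 6 untreated rats, with a grey line over the range and a bar at the median. Slc7a13 spreads widest, Spp1 and Umod are the most abundant, and the urothelial genes Upk1b and Krt5 lie near or under 1 TPM in most rats.

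Urothelium, the lining of the renal pelvis, had genes near the limit of detection. Its 10 genes summed to 7.402 TPM in rat 1, 9.39 in rat 12, 4.77 in rat 18, 3.56 in rat 22, 22.4 in rat 23 and 5.99 in rat 24, with rat 23 highest. Only Krt17 reached 1 TPM in each rat, from 1.13 to 5.08 TPM, and was highest in rat 1. The uroplakin Upk1b ran from 0.713 to 1.604 TPM, the basal keratin Krt5 was under 1 TPM in 5 rats and at 2.06 TPM in rat 23, and Krt13 was at 0 in all 6.

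By median BCV the fibroblast, smooth muscle and endothelial lists varied less than those of the proximal tubule. They varied more than the median of 0.0953 over all genes. The fibroblast and myofibroblast list summed from 3160.1 to 5257 TPM, with a median BCV of 0.179, and 1 of its 16 genes was variable. Mgp, an inhibitor of calcification, was the leading member at a median of 2035 TPM, followed by the matrix glycoprotein Sparc at 853 and the intermediate filament Vim at 612 TPM. Collagen genes were lower per transcript, with Col3a1 at a median of 90.3, Col1a1 at 60.8 and Col1a2 at 24.5 TPM. On the CPM scale Col1a1 was 309 CPM in rat 1, 271 in rat 12, 246 in rat 18, 283 in rat 22, 254 in rat 23 and 322 in rat 24, a narrow range with a BCV of 0.107. Postn, periostin, a matrix protein of remodelling tissue, was the variable gene, at 99.5 CPM in rat 1, 31.9 in rat 12, 24.5 in rat 18, 18 in rat 22, 19.5 in rat 23 and 39.8 in rat 24. Rat 1 stood apart at the high end, and rat 24 was next.

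Smooth muscle and pericyte genes were led by Tagln at a median of 543 TPM and Acta2, smooth muscle actin, at 197 TPM, and neither was variable. Itga8, an integrin of mesangial and smooth muscle cells, was variable with a BCV of 0.669. It was at 11.7 CPM in rat 1, 9.16 in rat 12, 11.2 in rat 18, 40.8 in rat 22, 46.5 in rat 23 and 24.8 in rat 24, and rats 22, 23 and 24 lay above the other 3. Endothelial genes summed from 467 to 657 TPM over 13 genes, all detected in each rat, with a median BCV of 0.123. None was variable, against 1.3% of all genes in the fit. Pecam1 ran from 96.6 to 126 CPM, the co-receptor Eng from 162 to 264 CPM, and Ehd3, a marker of glomerular endothelium, from 39.6 to 70.3 CPM, with rats 22 and 23 highest as for the podocyte genes.

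Of the leukocyte lists, that of macrophages had the highest summed TPM. The 13 macrophage genes summed from 2119 to 2916 TPM, of which the lysozyme Lyz2 made up 57.9%. None of the 13 was variable, against 1.3% of all genes in the fit. Rat 24 had the highest value of 11 of them. Cd68, a lysosomal marker, was at 39.8 CPM in rat 1, 56.3 in rat 12, 45.9 in rat 18, 48.8 in rat 22, 58.95 in rat 23 and 62.9 in rat 24, and rats 24 and 23 were the highest and rat 1 the lowest. The complement gene C1qa ran from 174 to 245 TPM, and Adgre1, the F4/80 antigen, from 6.81 to 14.5 TPM. Lymphocyte genes summed from 173 to 310.2 TPM. Cd3e of T cells ran from 21.4 to 34.7 TPM and was not variable, whereas the B cell genes Cd79b and Ms4a1 were. Ms4a1, the CD20 antigen, was at 9.74 CPM in rat 1, 15.5 in rat 12, 9.42 in rat 18, 1.96 in rat 22, 5.35 in rat 23 and 8.31 in rat 24, highest in rat 12 and apart at the low end in rat 22. Neutrophil genes were sparse. S100a9 ran from 1.88 to 15.7 CPM, highest in rat 24, with a BCV of 0.756, and Mpo was at 0 in each rat. The stem cell factor receptor Kit, which mast cells share with other cells, had the highest level of that list at 27.7 TPM, while the mast cell protease genes Cpa3 and Tpsb2 stayed under 1 TPM.

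Red cell genes set 1 rat apart. Hba-a1, an alpha globin, was at 183 CPM in rat 1, 136 in rat 12, 122 in rat 18, 111 in rat 22, 924 in rat 23 and 362 in rat 24, and Hbb, a beta globin, at 32.9 CPM in rat 1, 36.8 in rat 12, 40.9 in rat 18, 26.8 in rat 22, 339.8 in rat 23 and 64.7 in rat 24. Rat 23 lay far above the others for both and rat 24 was second. The BCVs were 0.837 and 0.995, and Hba-a3, Hbb-b1, Hbbl1 and Hbb-bs followed the same order of the first 2 rats. Globin genes are close copies of each other, so how reads were split among them is uncertain. Alas2, the heme synthesis enzyme of immature red cells, was highest in rat 23 as well, from 0.287 to 8.39 TPM. The kidneys were frozen before perfusion, and the part of blood in each piece was not tested.

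Genes of the injury list were expressed in all 6 kidneys, with Spp1 far in front. Without a wild-type kidney, these levels do not show how much came from injury. The list of 16 summed from 11561 to 18394 TPM, of which Spp1 made up 74.0%, and 1 gene was variable. Clu, clusterin, had a median of 1526 TPM, Cd24, a surface marker of dedifferentiated tubule cells, of 917 TPM, and Lcn2, lipocalin 2, of 327 TPM. Havcr1, kidney injury molecule 1 of the proximal tubule, was at 187 CPM in rat 1, 98.3 in rat 12, 195 in rat 18, 178 in rat 22, 114 in rat 23 and 295 in rat 24, highest in rat 24 and lowest in rat 12. Lcn2, which the distal nephron makes, was instead highest in rat 1 and then rat 24, from 126 to 280.0 CPM. Mmp7, matrilysin, was the variable gene, at 16.2 CPM in rat 1, 12.8 in rat 12, 21.6 in rat 18, 12.3 in rat 22, 18.7 in rat 23 and 60.9 in rat 24, and rat 24 lay clear of the other 5. Sox9, a transcription factor of regenerating tubules, was even, from 37.2 to 53.3 TPM with a BCV of 0.0917.

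Genes of cell division were expressed in each rat. All 13 had at least 1 TPM in each rat, and none was variable, against 1.3% of all genes in the fit. Their median BCV was 0.192 against 0.0953 over all genes. Their sum ran from 169 to 206 TPM. Pcna, the clamp of the replication fork, made up 50.2% of this sum and was as even as the fit can estimate, from 64.01 to 69.99 CPM. Mki67, the gene of the Ki67 antigen, ran from 1.96 to 3.79 TPM. Top2a, a topoisomerase of dividing cells, ran from 2.16 to 5.51 TPM with a BCV of 0.304, and Cdk1, the kinase of mitotic entry, another member chosen after its values were seen, from 5.61 to 12.3 TPM with a BCV of 0.301. Rat 1 had the highest value of 9 of the 13 genes.

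None of the cystic disease genes analysed reached the BCV of a variable gene, against 1.3% of all genes in the fit. Of 12 listed, 11 could be analysed, all were detected in each rat, and their median BCV was 0.0587 against 0.0953 over all genes. Anks6 itself, with Entrez identifier 362515, was at 64.9 CPM in rat 1, 59.8 in rat 12, 55.3 in rat 18, 75.8 in rat 22, 63.5 in rat 23 and 75.4 in rat 24, with a BCV of 0.121. The 6 rats lay close together, and gene counts do not separate the mutant from the normal allele. Its median of 20.2 TPM was the 6528th highest of 17334 genes. Its partners Invs and Nek8 had medians of 3.73 and 14.9 TPM. Anks3, which binds Anks6, had 29.5 TPM, and Hif1an, the hydroxylase that modifies it, 16.3 TPM. Pkd2, polycystin 2, at 41.6 TPM, was higher per transcript than Pkd1, polycystin 1, at 9.94 TPM. The largest spread of the list was that of the RNA-binding protein Bicc1, from 105 to 184 CPM with a BCV of 0.228, lowest in rats 12 and 18.

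Genes in 3 lists respond to the state of the animal or tissue at sampling. Variable were 2 of 11 interferon-stimulated, 3 of 12 immediate early and 1 of 12 circadian genes, against 1.3% of all genes in the fit. Interferon-stimulated genes had their highest value in rat 23 in 11 of 11 cases, against 14.2% of all genes in the fit, and had a median BCV of 0.341. Isg15, a ubiquitin-like protein, was at 19.7 CPM in rat 1, 17.7 in rat 12, 19.2 in rat 18, 22.2 in rat 22, 40.3 in rat 23 and 16.3 in rat 24 and Irf7, a regulator of the interferon response, ran from 62.2 to 154 CPM, while of the 11 only Ifit3 and Oas1a were variable, with BCVs of 0.524 and 0.518. Immediate early genes, which rise within minutes of a stimulus, were highest in rat 1 in 9 of 12 cases, against 17.1% of all genes, with a median BCV of 0.236. Fos was at 101 CPM in rat 1, 21.3 in rat 12, 24.4 in rat 18, 13.8 in rat 22, 37.9 in rat 23 and 26.01 in rat 24, with rat 1 apart, and Fosb and Nr4a1 were the other 2 variable members. Of 12 circadian genes 8 were highest in rat 23, and their median BCV was 0.139. Per1 was the 1 variable gene, at 62.9 CPM in rat 1, 48.5 in rat 12, 66.3 in rat 18, 173 in rat 22, 180.5 in rat 23 and 136 in rat 24, and rats 22, 23 and 24 had more than the other 3, while Nr1d1 had a BCV of 0.1005. The hour of sampling was not analysed here.

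Among the 12 genes of antigen presentation only RT1-A1 was variable. This class I MHC gene was at 101 CPM in rat 1, 345 in rat 12, 287 in rat 18, 236 in rat 22, 222 in rat 23 and 85.4 in rat 24, so that rats 1 and 24 lay apart from the other 4 at the low end. RT1-CE10, RT1-A2, RT1-CE5 and RT1-CE13, class I genes chosen after their values were seen, were also lowest in rats 24 and 1. Class I genes with another order of rats were not counted. RT1-CE10 was at 14.6 CPM in rat 1, 62.7 in rat 12, 60.3 in rat 18, 51.4 in rat 22, 43.1 in rat 23 and 14.8 in rat 24, with a BCV of 0.603, and RT1-A2, RT1-CE5 and RT1-CE13 had BCVs of 0.443, 0.514 and 0.557. One abundant gene without a symbol, Entrez identifier 362816, was also lowest in rats 24 and 1. Its level was 52.1 CPM in rat 1, 503 in rat 12, 420.0 in rat 18, 429 in rat 22, 348 in rat 23 and 43.4 in rat 24. Whether it belongs to class I was not analysed here. B2m, the light chain of class I, ran only from 1954 CPM in rat 22 to 2582 CPM in rat 1. The class II gene RT1-Da ran from 549 CPM in rat 22 to 892 CPM in rat 12. Of the 12 genes of the list, 9 were lowest in rat 22, against 14.8% of all genes, and 3 in rat 24, against 16.6%. Class I genes are close copies and differ between strains, so reads from 1 may be counted for another, and this was not tested.

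The 30 genes with the highest BCV, among those with a median of at least 1 TPM and a mean of at least 50 counts, included solute carriers, enzymes and globins. Of the proximal tubule lists they held only Slc7a13. In 22 of them rats 12 and 18 had the 2 highest values, and in 21 of these rat 1 had the lowest. Over all 158 variable genes rats 12 and 18 were the 2 highest in 90, or 57.0%, against 15.1% of all genes in the fit. Rat 1 was the lowest in 60.1% of the variable genes and 16.7% of all genes. Solute carriers made up 13.3% of the variable genes, against 2.36% of all genes in the fit, and cytochrome P450 genes 3.16% against 0.322%. These shares describe the members and were not tested.

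**Figure D5:**
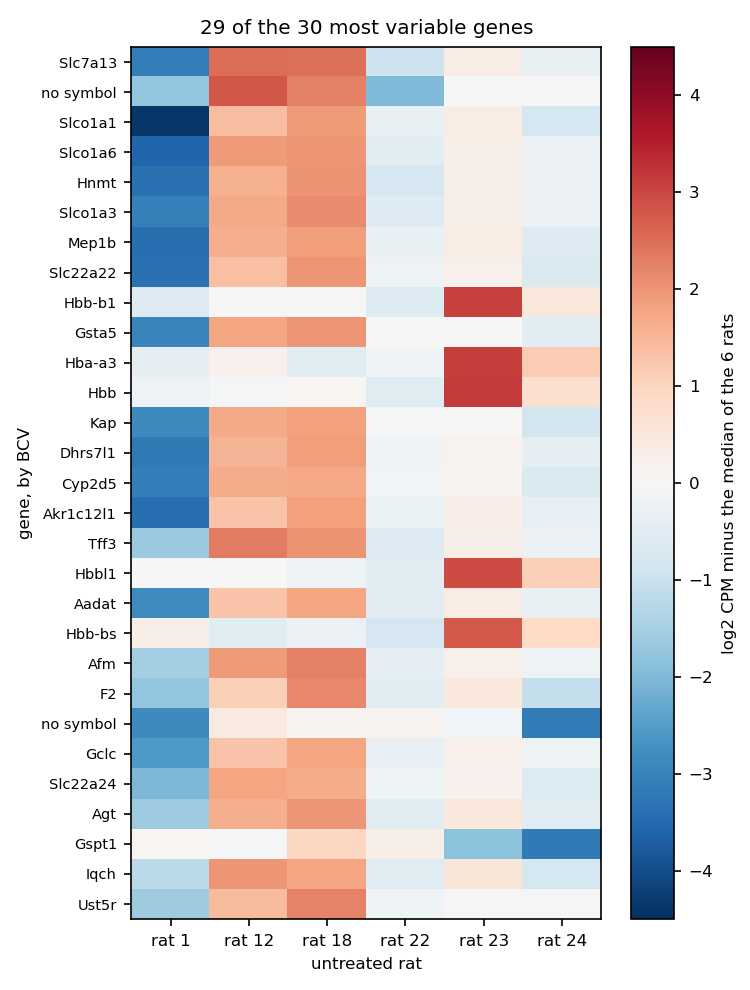
Log2 CPM of 29 of the 30 most variable genes in each of the 6 untreated rats, less the median of the 6 rats (colour, red above and blue below), with genes ordered by BCV from the top. Rats 12 and 18 are red and rat 1 blue in most rows, and the 5 globin genes are red in rat 23.

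Kap, the kidney androgen-regulated protein of the proximal tubule, was at 47.7 CPM in rat 1, 1121 in rat 12, 1256 in rat 18, 337 in rat 22, 356 in rat 23 and 196 in rat 24. Rats 12 and 18 were the highest and rat 1 stood apart at the low end, 26.3 times under rat 18. The organic anion transporters Slco1a1, Slco1a3 and Slco1a6, which are neighbours on chromosome 4, had BCVs of 1.11, 1.03 and 1.08. Slco1a1 was at 1.43 CPM in rat 1, 77.8 in rat 12, 111 in rat 18, 23.6 in rat 22, 37.6 in rat 23 and 17.4 in rat 24, and the same 2 rats were on top. As near copies these 3 genes may share reads. The organic anion transporter Slc22a22 ran from 2.72 to 108 CPM, and its relative Slc22a24 from 2.45 to 34.8 CPM. Among enzymes, Gclc, the catalytic subunit of the first step of glutathione synthesis, was at 97.6 CPM in rat 1, 1424 in rat 12, 2016 in rat 18, 454 in rat 22, 692 in rat 23 and 494 in rat 24, and the glutathione transferase Gsta5 ran from 1.02 to 32.1 CPM. Hnmt, which inactivates histamine, ran from 2.11 to 86.7 CPM, Mep1b, the beta subunit of the brush border protease meprin, from 3.47 to 134 CPM, and Aadat, an aminotransferase of lysine and kynurenine breakdown, from 48.7 to 1188 CPM. In each of these genes rats 12 and 18 were the highest and rat 1 the lowest. Tff3, a trefoil peptide of mucous and tubular epithelia, ran from 12.5 to 205 CPM in the same order.

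The bases before the start sites of Kap, Slco1a1 and Slc22a22 are shown, as examples of the 21 of the 30 genes that were highest in rats 12 and 18 and lowest in rat 1. Each of the 3 holds AGAACA or its reverse complement, so Slco1a6 and Gclc, which have the same order of rats and none of the letters searched, are shown too, with Slc34a1 beside them. The sequences are the 250 bases before the start in RefSeq (rat build GRCr8), 5′ to 3′ on the gene's strand, and 24 of the 30 genes had an entry. Kap is at chr4:168409033-168409282, minus strand, Slco1a1 at chr4:176681993-176682242, minus strand, Slc22a22 at chr7:90639696-90639945, minus strand, Slco1a6 at chr4:176839033-176839282, minus strand, Gclc at chr8:87510226-87510475, plus strand and Slc34a1, an early proximal tubule gene outside the 30, at chr17:9238984-9239233, minus strand. Capitals mark the letters GTTAAT, a partial site of HNF1 factors, and AGAACA, a partial site of steroid receptors such as those for androgens and glucocorticoids, on either strand.
Kap: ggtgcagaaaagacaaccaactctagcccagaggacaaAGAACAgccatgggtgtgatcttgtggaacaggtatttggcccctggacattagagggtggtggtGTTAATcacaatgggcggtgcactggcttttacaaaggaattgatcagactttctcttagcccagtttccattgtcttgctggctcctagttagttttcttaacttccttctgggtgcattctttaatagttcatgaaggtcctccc
Slco1a1: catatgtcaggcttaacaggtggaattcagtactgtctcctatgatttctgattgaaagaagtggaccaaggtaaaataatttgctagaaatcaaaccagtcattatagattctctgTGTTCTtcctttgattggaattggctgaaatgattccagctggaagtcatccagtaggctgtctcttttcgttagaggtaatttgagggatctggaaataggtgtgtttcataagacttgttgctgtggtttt
Slc22a22: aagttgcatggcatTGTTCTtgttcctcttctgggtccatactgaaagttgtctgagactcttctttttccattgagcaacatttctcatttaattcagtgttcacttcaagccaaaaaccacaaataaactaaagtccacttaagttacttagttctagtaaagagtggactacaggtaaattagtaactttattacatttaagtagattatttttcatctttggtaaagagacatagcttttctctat
Slco1a6: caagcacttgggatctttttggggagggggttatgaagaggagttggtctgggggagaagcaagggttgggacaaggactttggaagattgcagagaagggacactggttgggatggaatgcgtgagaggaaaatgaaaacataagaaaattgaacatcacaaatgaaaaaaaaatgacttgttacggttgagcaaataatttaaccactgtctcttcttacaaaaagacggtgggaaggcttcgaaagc
Gclc: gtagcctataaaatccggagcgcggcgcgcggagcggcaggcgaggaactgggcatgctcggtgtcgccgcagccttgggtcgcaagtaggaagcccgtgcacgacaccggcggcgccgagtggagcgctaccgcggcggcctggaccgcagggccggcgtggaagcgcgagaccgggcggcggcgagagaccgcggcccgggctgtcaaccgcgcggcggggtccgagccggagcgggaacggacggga
Slc34a1: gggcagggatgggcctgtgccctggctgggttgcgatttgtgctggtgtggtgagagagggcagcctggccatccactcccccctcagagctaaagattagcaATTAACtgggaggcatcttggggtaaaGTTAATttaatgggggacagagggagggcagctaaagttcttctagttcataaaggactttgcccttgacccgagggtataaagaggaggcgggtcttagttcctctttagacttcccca
GTTAAT or its reverse complement ATTAAC was in 6 of the 24 promoters, or 25%, in 17.5% of 120 promoters of variable genes, and in 4.11% of 9820 promoters of genes in the fit. AGAACA or its reverse complement TGTTCT was in 10 of the 24, or 41.7%, in 21.7% of the 120 and in 10.9% of the 9820. Of these 24 genes 5 were globins, which are near copies of each other and were high in rat 23, and 4 of the 10 matches were theirs. Without the globins each of these motifs was in 6 of 19 promoters, or 31.6%. The 6 with GTTAAT include Slc22a24 and Ust5r, which lie near each other on chromosome 1. Related genes among the 19 were not taken out. The HNF4 letters CAAAGTCCA, or TGGACTTTG on the other strand, were in 0 of the 24, in 3.33% of the 120 and in 0.326% of the 9820. The 3 sets overlap, as the 24 are among the 120 and these among the 9820. A match describes letters only and does not show that a factor binds there.

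Genes of the angiotensin system were among the variable genes, and those named here did not move alike. Agt, angiotensinogen, the precursor of the angiotensin peptides, was at 4.77 CPM in rat 1, 46.1 in rat 12, 57.9 in rat 18, 10.7 in rat 22, 20.3 in rat 23 and 10.3 in rat 24. Rats 12 and 18 were the highest and rat 1 the lowest for Agt. Outside the rule for named genes, and chosen after their values were seen, the receptor Agtr1b ran from 1.63 to 10.3 CPM with rats 22 and 23 on top and a BCV of 0.721. The converting enzyme Ace, from 7.904 to 13.1 CPM with a BCV of 0.149, and the main receptor Agtr1a, with a BCV of 0.269, were not variable.

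A few of the 30 are best known from other settings. F2, prothrombin, and Afm, afamin, both plasma proteins made mainly by the liver, ran from 2.25 to 34.4 CPM and from 2.45 to 33.7 CPM, with rats 18 and 12 on top while the liver gene Alb was at or near 0. Gspt1, a translation termination factor, was at 43.4 CPM in rat 1, 37.7 in rat 12, 77.7 in rat 18, 48.05 in rat 22, 11.2 in rat 23 and 4.49 in rat 24, lowest in rats 24 and 23. Such genes may share reads with processed copies elsewhere in the genome, which was not tested.

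A gene was counted as apart in 1 rat where that rat lay at least 1 log2 unit from the nearest of the others and at least 2 from their median. This held for 44 of 12114 genes, or 0.363%. In 30 of them rat 1 was low, among them Slc7a13, Kap, Slco1a1, Agt, Miox and the urate transporter Slc22a12, and in 2, Fos and Postn, rat 1 was high. Rat 23 was high in 6, all globins. Rat 18 was high in F2, rat 22 was low in the B cell gene Ms4a1 and in Slamf6, and rat 24 was high in the peroxidase Lpo and low in Gspt1 and Pak2. No gene set rat 12 apart. Over all genes the first principal component of log2 CPM held 40.1% of the variance, with rats 12 and 18 at one end (-23.2 and -22.8) and rat 1 at the other (20.0). The second component held 27.6% and had rat 1 at one end (24.1) and rats 22 and 23 at the other (-16.6 and -14.5).

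The levels of 8 pairs of single genes were correlated over the 6 rats on the log2 CPM scale. They asked whether single genes, such as Slc34a1 of the early proximal tubule, moved with genes of injury, stroma or other segments. Slc34a1 does not stand for the whole proximal tubule, whose late genes ordered the rats in another way. No pair passed the threshold of 0.05 in a two-sided exact permutation test after Benjamini-Hochberg adjustment over the 8 pairs. The largest Pearson r was that of Slc34a1 with Umod, r = 0.69 with an exact permutation p = 0.0958 and an adjusted p = 0.619, and Spearman's rho was 0.20 with an exact permutation p = 0.714 and an adjusted p = 0.919. Without rats 1 and 22, the rats farthest from the median of Slc34a1, r was 0.22. Without rat 1 alone it was 0.18 and without rat 22 alone 0.72, so that it rested on rat 1. Slc34a1 with Col1a1 gave r = -0.47 (rho -0.37), with Cd68 r = 0.47 (rho 0.26), with Aqp2 r = -0.23 (rho -0.43) and with Havcr1 r = -0.04 (rho -0.09), with adjusted exact permutation p for r from 0.619 to 0.940. Without rat 1 the r with Cd68 turned to -0.54 and that with Havcr1 to 0.18, and without rat 23 the latter was 0.08. Havcr1 with Spp1 gave r = 0.47 (rho 0.60) and with Lcn2 r = 0.40 (rho 0.37), and Col1a1 with Acta2 gave r = -0.38 (rho -0.09), each with an adjusted exact permutation p of 0.619 for r and 0.919 for rho. Without rat 24 the r of Col1a1 with Acta2 turned to 0.34. With 6 rats, relations of this size were not detectable.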

How the data were processed

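For each rat the authors deposited an estimated count and a TPM value per Entrez gene. The submitters' processing notes name Trim Galore 0.6.4, kallisto 0.4.6 and the rat build rn6, while the methods name DESeq2 and an R package of human transcripts. Of the deposited counts 14.0% were not whole and were rounded. Of 17334 identifiers 17179 matched a symbol in the RefSeq table of GRCr8. The members and gene lists were chosen with earlier results of these data known.

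BCV was computed as the square root of the gene-wise dispersion in edgeR 4.0.16 (R 4.3.3; TMM, intercept only, prior.df 0, filterByExpr). This filter needs about 10 counts in every rat, so genes near 0 in 1 rat were outside it. CPM used TMM factors over genes with a mean of at least 10 counts, and log2 CPM a prior count of 2. Named genes were the 25 highest by median TPM, the 30 most variable, the top 3, all-0 and most variable members of each list, the paired and cystic disease genes, and 20 defining genes. Other list members are named as such. DESeq2 1.42.0, RLE, other filters and TPM scales were alternatives. Tested on simulated data, the fit called most genes given a large spread and none given a small one, and it underestimated the spread of both. Pkhd1, Tmem207, Upk3b, Cd79a, Jchain, Krt7, Kdm5d and Uty were not analysed here, and some further members of the lists and named genes are not reported here. The 26 lists held 301 genes, and no treated library was used.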

Additional observations from a re-analysis of the deposited data

Results flagged for a closer look

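In 11 of the 162 named genes examined, 1 of the 6 rats lay far from the other 5 on the log2 CPM scale, where the gap to its nearest neighbour, as a part of the whole range, exceeded Dixon's 95% critical value for 6 samples. Chance flags about 1 in 20 groups, but the count cannot be set against that share, because some genes were named for their spread. These were Bag5, near 0 in 1 rat, Hbb and Hbb-b1, among the most variable genes, and Mmp7 and Miox, the most variable of their lists, and for them the gap restates the choice. The gap made up 0.7266 of the range for Atp1b1 and 0.7263 for Hsd11b2, both low in rat 24, and 0.6481 for Mmp7, high in rat 24. In rat 23 it was 0.7085 for Hbb-b1, 0.6537 for Hbb and 0.6567 for Isg15, all high. In rat 1 Slc22a6 (0.6331) and Miox (0.6266) were low and Sparc (0.6917) was high. In rat 12 Hif1an (0.7383) was low. The widest gap was that of Bag5, low in rat 23 (0.9624).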

How the results depend on the processing

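The number of variable genes was 158 of 12114. It was 159 with RLE size factors or DESeq2, and 163 when every rat had to reach 10 counts, and each of these held all 158. It was 915 with no filter, 265 with a mean of at least 10 counts (a setting chosen after seeing the data), 70 with edgeR's default prior, 331 by the SD of log2(TPM + 1) and 537 by that of log2(TPM + 0.1). Leaving out each rat in turn gave 136 to 193, lowest without rat 1, when 104 of the 158 remained. Genes apart in 1 rat numbered 44, and 128 with no filter, 89 on log2(TPM + 1) and 82 with a mean of at least 10 counts. The share of the 25 most abundant genes was 12.3% of TPM and 8.4874% of counts. The correlation of Slc34a1 with Havcr1 changed sign to 0.0383 on log2(TPM + 1) and to 0.1552 without the 2 rats farthest in Slc34a1, and ran from -0.1615 to 0.1797 on leaving out 1 rat, highest without rat 1. That of Slc34a1 with Cd68 fell to -0.3467 without those 2 rats and ran from -0.5412, without rat 1, to 0.6777. That of Col1a1 with Acta2 rose to 0.3659 without the 2 rats farthest in Col1a1 and ran from -0.6179 to 0.34, without rat 24. None of these passed a test, and the causes were not tested. Of 26 lists, 14 kept their range between rats within 1.5 times when the median of log2(TPM + 1) replaced the sum, and 12 did not. The highest rat was the same by both in 14 of the 26, and the lowest rat in 14. No paired analysis was possible because only untreated rats were used. Depth limits genes with under about 10 counts a rat.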

Other observations

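Bag5, a co-chaperone, had estimated counts of 431 in rat 1, 364 in rat 12, 414 in rat 18, 380 in rat 22, 1 in rat 23 and 399 in rat 24. Rat 23 was near 0 while the other 5 lay close together. Its position outside the fitted genes comes from the filter, which needs counts in every rat, and whether this is a difference in RNA or in the assignment of reads was not tested. Among other genes that the filter left out, chosen after their values were seen, Rbp4, the retinol carrier, ran from 0.123 to 79.2 TPM, Gc, the vitamin D carrier, from 0.237 to 24.5 TPM, and Cyp2c11, a male-specific P450 of rat liver, from 0.0521 to 6.88 TPM, each lowest in rat 1 and highest in rats 12 and 18. Hba-a2 ran from 1.85 to 1419.5 TPM, highest in rat 23 as for the other globins.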
